A study of Mus musculus with 12 samples.

Results

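The serum amyloid A genes measured here are Saa1, Saa3 and Saa4, 3 of the 19938 mouse genes that had a probe set of their own symbol on the arrays. They were chosen by matching those 3 symbols to the probe annotation, and each was read by 1 probe set (10563611 for Saa1, 10563597 for Saa3 and 10563602 for Saa4), so no choice between probe sets was needed. A further gene of the family, Saa2 (probe set 10553274), lay outside the chosen members and is given only for comparison. The gene table lists "Saa2" among the older names of Saa1 and "Saa1" among those of Saa2, so values under either name in other sources may belong to the other gene. Here the names follow the Entrez gene identifiers of the annotation.

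RNA was measured in livers of 12 male mice, 1 array per liver, in 3 groups of 4. S534A LPS mice were homozygous for a knock-in allele of Rela, the gene of the NF-kB subunit p65, in which the mutation S534A replaces a serine by alanine, and received lipopolysaccharide (LPS), the endotoxin of Gram-negative bacteria, at 1 µg/kg. WT LPS mice were wild-type C57Bl6/J mice given the same dose, and WT untreated mice were wild-type C57Bl6/J mice given none. The knock-in was made in PTL1 embryonic stem cells, its selection cassette was removed, and the line was crossed back to C57Bl6/J for 5 generations before it was bred to homozygosity. No untreated S534A livers were analysed here, so the level before LPS in that genotype is not known, and neither labels nor files state the time after LPS. Values are log2 of the array signal, so 1 unit is a doubling, and a level of one probe set cannot be set against that of another.

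Serum amyloid A proteins are small apolipoproteins that circulate on high-density lipoprotein (HDL). In mice the acute forms Saa1 and Saa2 are made mainly by hepatocytes during infection or injury, Saa3 is made in many tissues and by macrophages as well as in the liver, and Saa4 is the constitutive form that is present without inflammation. The acute genes are classic targets of interleukin-1, tumour necrosis factor and interleukin-6, which reach their promoters through NF-kB, C/EBP factors and STAT3, and the protein deposited in secondary amyloidosis is derived from them.

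The 3 members and Saa2 lie side by side on chromosome 7. At the acute genes, NF-kB and C/EBP factors are known to act just upstream of the transcription start. The 250 bases before each start are shown as a description of this cluster, whose genes differed in their change of signal after LPS. The part of these sequences in that difference was not tested. They are RefSeq sequences of the mouse build GRCm38.p6, read in the direction of the gene. Saa1 is chr7:46742981-46743230 (minus strand), Saa3 is chr7:46715677-46715926 (minus strand), Saa4 is chr7:46732604-46732853 (minus strand) and Saa2 is chr7:46751583-46751832 (plus strand). Capitals mark matches to the NF-kB pattern GGGNNNNNCC and the C/EBP pattern TTNNGNAA, searched on both strands.
Saa1: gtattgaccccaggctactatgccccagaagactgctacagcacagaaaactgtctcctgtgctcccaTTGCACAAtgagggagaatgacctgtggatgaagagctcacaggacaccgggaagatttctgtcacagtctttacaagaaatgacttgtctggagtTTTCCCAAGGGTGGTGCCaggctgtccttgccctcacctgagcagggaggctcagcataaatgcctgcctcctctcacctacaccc
Saa3: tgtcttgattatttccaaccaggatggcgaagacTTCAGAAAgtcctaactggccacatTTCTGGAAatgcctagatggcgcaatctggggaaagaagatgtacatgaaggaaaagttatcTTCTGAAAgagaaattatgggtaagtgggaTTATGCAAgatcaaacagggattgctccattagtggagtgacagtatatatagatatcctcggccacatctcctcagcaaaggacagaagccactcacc
Saa4: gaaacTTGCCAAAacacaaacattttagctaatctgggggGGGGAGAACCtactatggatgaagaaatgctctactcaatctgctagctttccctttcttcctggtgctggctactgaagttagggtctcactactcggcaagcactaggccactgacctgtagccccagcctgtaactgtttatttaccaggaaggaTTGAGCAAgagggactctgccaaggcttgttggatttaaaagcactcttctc
Saa2: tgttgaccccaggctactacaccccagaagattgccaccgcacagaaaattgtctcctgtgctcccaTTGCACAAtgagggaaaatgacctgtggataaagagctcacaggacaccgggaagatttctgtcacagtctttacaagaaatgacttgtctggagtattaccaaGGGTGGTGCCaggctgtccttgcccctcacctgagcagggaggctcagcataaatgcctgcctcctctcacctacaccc

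In the Saa1 sequence, a C/EBP match at -86 to -79 ended at the base before an NF-kB match at -78 to -69, counted from the transcription start. A second C/EBP match lay at -182 to -175. Saa2 was 94.8% identical to Saa1 over 251 aligned columns and held an NF-kB match at -79 to -70 and 1 C/EBP match at -183 to -176. The Saa3 sequence held 4 C/EBP matches, beginning at -216, -191, -129 and -99, and no NF-kB match. The Saa4 sequence held an NF-kB match at -210 to -201 and C/EBP matches at -245 to -238 and -52 to -45. The sequences of the 3 members were 42.8% to 48.2% identical in pairs. Neither the STAT pattern TTCNNNGAA nor the TATA box pattern TATAAA was found in any of the 4. Both main patterns are loose: of 32851 promoter windows of this length, 45.8% held the NF-kB pattern and 36.8% the C/EBP pattern, against 7.02% for the STAT pattern and 12.4% for TATAAA. A match is a description of letters and not evidence of binding. The start used for Saa3 lies 3939 bases inside the outermost start of the gene table, and that of Saa1 lies 201 bases inside, so other promoters of these genes were not examined.

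Saa1, an acute hepatic form, was much higher after LPS. Its log2 values were 11.65, 11.72, 11.74 and 11.64 in S534A LPS livers and 11.62, 11.77, 11.68 and 11.82 in WT LPS livers, against 8.16, 6.34, 5.36 and 7.45 in WT untreated livers. Every LPS array lay above every untreated array, and the arrays of the 2 LPS groups overlapped. The mean was 11.69 ± 0.05 in S534A LPS livers, 11.72 ± 0.09 in WT LPS livers and 6.83 ± 1.23 in WT untreated livers (SD, n = 4 each). By limma, fitted over all 19938 genes with Benjamini-Hochberg adjustment, Saa1 rose 29.1-fold in S534A LPS livers over WT untreated livers (log2 difference 4.86 ± 0.43 SE, adjusted p = 2.62e-06). It rose 29.7-fold in WT LPS livers over the same untreated livers (4.89 ± 0.43 SE, adjusted p = 3.35e-06).

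Saa3, the form made by many cell types in mice, also rose strongly. Its log2 values were 13.02, 13.05, 13.09 and 12.86 in S534A LPS livers and 12.92, 13.07, 13.09 and 13.12 in WT LPS livers, against 7.90, 7.89, 8.54 and 8.75 in WT untreated livers. The LPS arrays again lay above all untreated arrays, with the genotypes overlapping. The means were 13.01 ± 0.10 in S534A LPS livers, 13.05 ± 0.09 in WT LPS livers and 8.27 ± 0.44 in WT untreated livers (SD, n = 4 each). The rise was 26.6-fold in S534A LPS livers (log2 difference 4.74 ± 0.16 SE, limma adjusted p = 2.60e-10) and 27.5-fold in WT LPS livers (4.78 ± 0.16 SE, adjusted p = 2.79e-10).

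Saa4, the constitutive form, rose far less in signal. It measured 12.70, 12.69, 12.87 and 12.71 in S534A LPS livers and 12.72, 12.75, 12.95 and 13.04 in WT LPS livers, against 12.13, 12.37, 12.14 and 12.42 in WT untreated livers. The lowest LPS array was still above the highest untreated array. The means were 12.74 ± 0.09 in S534A LPS livers, 12.87 ± 0.15 in WT LPS livers and 12.26 ± 0.15 in WT untreated livers (SD, n = 4 each). The rise was 1.40-fold in S534A LPS livers (log2 difference 0.48 ± 0.09 SE, limma adjusted p = 0.00158) and 1.52-fold in WT LPS livers (0.60 ± 0.09 SE, adjusted p = 0.000373). These folds start from a mean of 12.26 in WT untreated livers, against a highest value of 14.48 for any probe set on any array. How far that level limited the rise that could be read was not tested.

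For scale, limma called 11.0% of all genes higher and 16.0% lower in S534A LPS livers than in WT untreated livers, and in 13.8% every S534A LPS array lay above every untreated array. In WT LPS livers 9.34% of genes were called higher and 15.6% lower than in WT untreated livers, and 9.78% were separated upward. All 3 members were called higher and were separated in both comparisons. Ranked by log2 difference among the 19938 genes, Saa1 was 9th in S534A LPS livers and 7th in WT LPS livers, Saa3 was 14th and 8th in the same order, and Saa4 was 1318th and 825th. These comparisons share the same untreated livers, so they are not independent of each other. Saa2, the near copy of Saa1, measured 13.29 ± 0.04 in S534A LPS livers and 13.32 ± 0.09 in WT LPS livers, against 9.11 ± 1.22 in WT untreated livers (SD, n = 4 each). Because Saa1 and Saa2 are closely similar, part of either signal may come from transcripts of the other, and this was not tested.

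**Figure D1:**
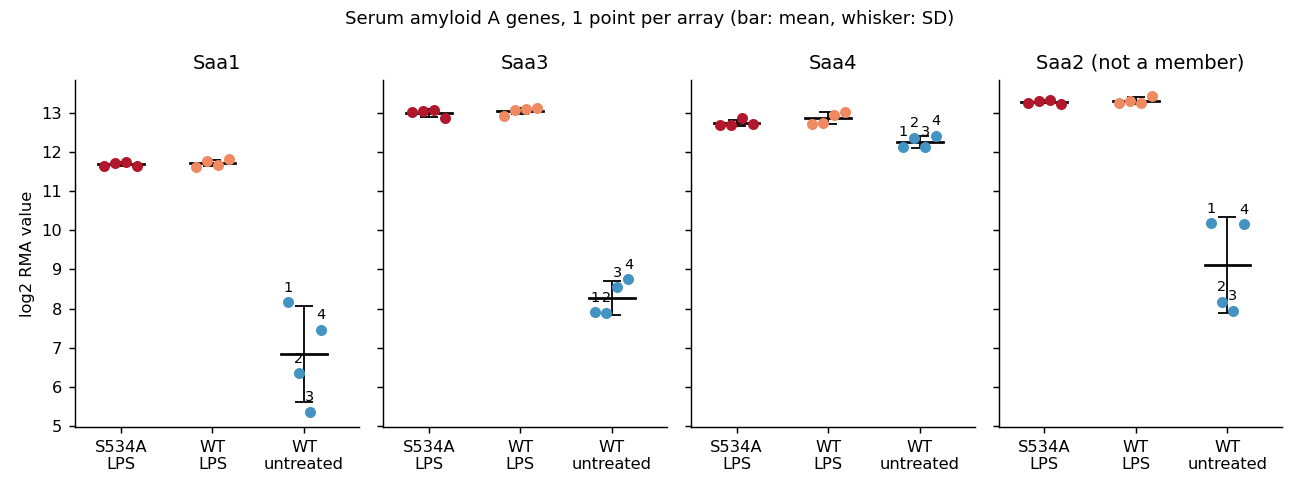
Log2 RMA values (y axis) of Saa1, Saa3, Saa4 and, for comparison, Saa2 in S534A LPS, WT LPS and WT untreated livers (x axis), 1 point per array, with the mean as a bar and the SD as a whisker and with replicate numbers at the untreated points. All 8 LPS arrays lie above the 4 untreated arrays in each panel, and the untreated arrays are spread widely for Saa1 and Saa2.

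The inequality of these changes was tested on the within-array difference between members, with the 8 LPS arrays of both genotypes set against the 4 untreated arrays. The change of Saa1 exceeded that of Saa4 by 4.34 on the log2 scale (exact two-sided permutation test, p = 0.00404, adjusted p = 0.00606 over 3 pairs). The change of Saa3 exceeded that of Saa4 by 4.22 (exact permutation p = 0.00404, adjusted p = 0.00606). The p of 0.00404 is the smallest this test gives for 8 against 4 arrays. The changes of Saa1 and Saa3 differed by 0.12 (exact permutation p = 0.517), but this value rested on single untreated livers. It was -0.46 without untreated replicate 3 (exact permutation p = 0.461) and 0.69 without untreated replicate 1 (exact permutation p = 0.0970), so which of the 2 genes changed more was not resolved. A ratio within an array shows unequal change of signal only. Saa4 already measured 12.26 in WT untreated livers, and the highest value of any probe set on any array was 14.48. Within that range a rise as large as that of Saa1 or Saa3 could not have been read for Saa4. The tests against Saa4 thus concern signals, and how far its level limited the rise was not tested.

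Between the genotypes after LPS, no member passed the test. The log2 difference of S534A LPS minus WT LPS was -0.03 for Saa1 (95% interval -0.96 to 0.90), -0.05 for Saa3 (-0.40 to 0.31) and -0.12 for Saa4 (-0.32 to 0.08), each with a limma adjusted p of 1.00. The wide interval of Saa1 comes with a spread that is shared over all 12 arrays and so includes the untreated livers. In a fit of the 8 LPS arrays alone the intervals were -0.17 to 0.11 for Saa1, -0.21 to 0.12 for Saa3 and -0.31 to 0.07 for Saa4. Over all genes, 0.166% were called higher and 0.00502% lower in S534A LPS livers, and 3.25% had every S534A LPS array above every WT LPS array. With array weights the Saa4 difference was -0.19 with an interval below 0, from -0.34 to -0.04, but its adjusted p was 0.210. A missed threshold does not show that the genotypes had equal levels.

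**Figure D2:**
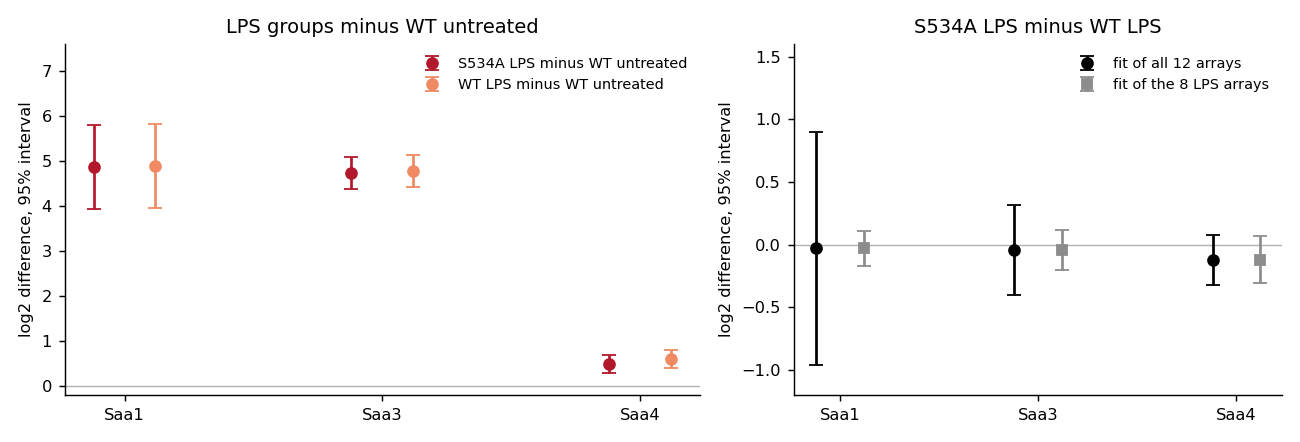
Log2 differences (y axis) with 95% intervals for the 3 members (x axis). The left panel sets S534A LPS and WT LPS livers against WT untreated livers, with Saa1 and Saa3 near 4.8 and Saa4 at 0.48 and 0.60, and the right panel shows S534A LPS minus WT LPS, where the fit of the 8 LPS arrays (squares) gives a narrower interval for Saa1 and Saa3 than the fit of all 12 (circles).

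The untreated livers differed among themselves in the acute members. The SD of Saa1 over the 4 untreated arrays was 1.23, the 23rd largest of 19938 genes, and its lowest and highest arrays were 6.92-fold apart. The SD of Saa2 ranked 24th, that of Saa3 504th at 0.44 and that of Saa4 7948th at 0.15, against a median of 0.131 over all genes. After LPS the spread of Saa1 was small, with an SD of 0.05 in S534A LPS livers and 0.09 in WT LPS livers. The members did not follow the same order among untreated livers: Saa1 was high in replicates 1 and 4, Saa3 in replicates 3 and 4, and Saa4 in replicates 2 and 4. Over all 12 arrays, the deviations from the group means had a Pearson r of -0.22 between Saa1 and Saa3. The r was 0.10 between Saa1 and Saa4 and 0.29 between Saa3 and Saa4. These values describe 12 arrays that share 3 group means. Deviations of Saa1 and Saa3 were far larger in untreated livers (SD 1.23 and 0.44) than in LPS livers (SD 0.05 to 0.10). Each r thus mainly reflects the 4 untreated livers.

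Most clock genes, the regulators of daily rhythm, also split the untreated livers. Of 11 measured, 7 were higher and 2 (Arntl and Clock) lower in both of untreated replicates 2 and 4 than in replicates 1 and 3, and 2 (Cry1 and Nr1d1) did neither. Nr1d1 measured 11.63, 10.79, 10.62 and 11.71, high in replicates 1 and 4 as Saa1 was. It is among the 5 genes most like Saa1 by deviations from the group means on these arrays (r = 0.894). The shared order is therefore not a separate observation. Dbp, a clock-controlled transcription factor, measured 8.14, 11.19, 7.59 and 11.39, and Arntl, a core clock activator, measured 9.03, 6.29, 9.08 and 6.20. These 2 genes were named after their values were seen, and both separated replicates 2 and 4 from replicates 1 and 3. The mean of 11 clock genes was 9.40 and 9.46 in untreated replicates 2 and 4, against 8.30 and 7.96 in replicates 1 and 3, with 8.38 to 8.65 in S534A LPS livers and 8.64 to 8.74 in WT LPS livers. How many of all genes separate replicates 2 and 4 from replicates 1 and 3 was not counted, so these counts lack a background share. Clock genes were added after their values were seen, so their counts and means are not separate support for the split. The part of the clock genes in the results was not tested. Against untreated replicates 2 and 4 alone, a choice made after seeing the data, Saa4 was higher by 0.35 in S534A LPS livers (limma adjusted p = 0.0234) and by 0.47 in WT LPS livers (adjusted p = 0.00541). Against replicates 1 and 3 alone it was higher by 0.61 in S534A LPS livers (adjusted p = 0.000790) and by 0.73 in WT LPS livers (adjusted p = 0.000271). The Saa1 differences lay between 4.80 and 4.96 and the Saa3 differences between 4.69 and 4.83 in those 4 fits, all called. Untreated Saa4 was itself higher in replicates 2 and 4 (12.37 and 12.42) than in replicates 1 and 3 (12.13 and 12.14). Its smaller differences against replicates 2 and 4 follow from that, and these adjusted p values do not test the split.

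**Figure D3:**
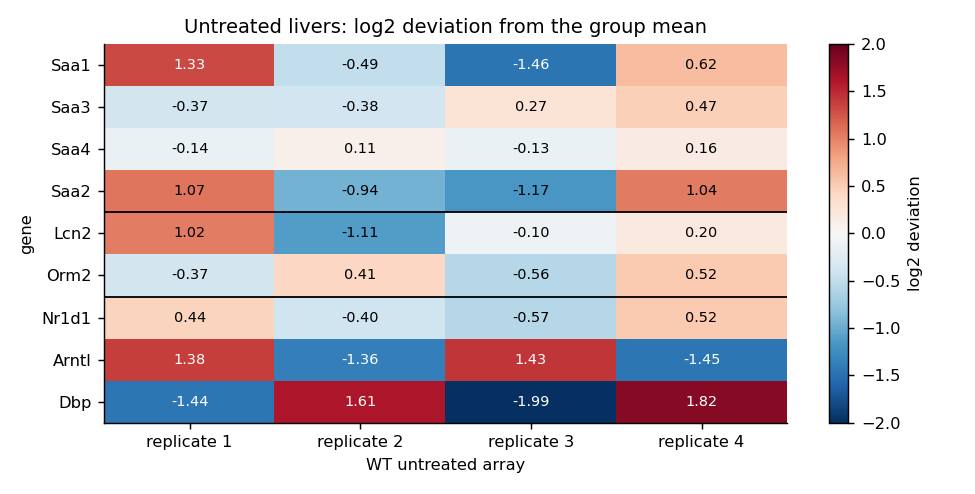
Deviation of each WT untreated array (x axis) from the untreated mean, in log2 units (colour and printed value), for the serum amyloid A genes, Lcn2, Orm2 and 3 clock genes (y axis). Saa1 deviates by 1.33 in replicate 1 and by -1.46 in replicate 3, while Dbp and Arntl separate replicates 2 and 4 from replicates 1 and 3 and Nr1d1 does not.

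The genes most like each member over the 12 arrays were taken by Pearson r, which mainly reflects the step between LPS and untreated livers. For Saa1 they were Saa2 (r = 0.995), the siderophore-binding protein Lcn2 (0.980), the interferon-inducible GTPase Iigp1 (0.978), and the interferon regulatory factors Irf7 (0.978) and Irf9 (0.977). For Saa3 they were the chemokine Cxcl9 (0.998), Trim12a (0.998), Plscr1 (0.997), the guanylate-binding protein Gbp7 (0.996) and Serpina10 (0.996). For Saa4 they were the acute phase glycoprotein Orm2 (0.964), the small heat shock protein Hspb8 (0.963), Mbd1 (0.956), the chemokine Cxcl13 (0.953) and Irf2bpl (0.952). By deviations from the group means, which leave out that step, the closest to Saa1 were Gm4951 (0.951), Saa2 (0.940), Stxbp4 (0.901), Obox5 (0.898) and the clock repressor Nr1d1 (0.894). Those closest to Saa3 were Olfr1246 (0.957), Fam228b (0.927), C1qtnf3 (0.913), Hhex (0.891) and Xbp1 (0.891), and those closest to Saa4 were Slc10a5 (0.936), Dnajc22 (0.936), Klhdc7a (0.931), Zcchc24 (0.922) and Stard4 (0.911). These are the highest of 19938 values over few arrays. For Saa1 and Saa3 the values from deviations mainly reflect the 4 untreated livers, where both genes varied most.

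On chromosome 7 of GRCm38.p6 the family occupies a short block in the order Saa3 (46711998 to 46719615), Saa4 (46727992 to 46732603), Saa1 (46740497 to 46743181) and Saa2 (46751833 to 46754313). The gap between neighbours is 8377 bases from Saa3 to Saa4, 7894 from Saa4 to Saa1 and 8652 from Saa1 to Saa2. Saa4 thus lies between Saa3 and Saa1, which both rose far more in signal. The protein-coding neighbours on one side are Sergef, Tph1 (tryptophan hydroxylase) and Saal1, and on the other Hps5, Gtf2h1 and Ldha. Of these 6, Ldha (lactate dehydrogenase A) was the only one called, higher by 0.72 in S534A LPS livers (limma adjusted p = 2.08e-05) and by 0.68 in WT LPS livers (adjusted p = 4.71e-05), each over WT untreated livers. Of all genes, 11.0% were called higher in S534A LPS livers and 9.34% in WT LPS livers. The call of Ldha among these 6 is near these shares and is not read as a result about the locus. Saal1, the gene next to Saa3, differed by 0.23 in S534A LPS livers (adjusted p = 0.0741) and by 0.06 in WT LPS livers (adjusted p = 0.640).

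Among the inducers of these genes, 9 cytokine genes were measured. Between the genotypes after LPS, 2 of the 9 were higher and none lower, against 0.166% and 0.00502% of all genes. Il1a was higher by 1.27 in S534A LPS livers than in WT LPS livers (limma adjusted p = 0.00191), at 9.44 ± 0.11 against 8.17 ± 0.23 (SD, n = 4 each), and measured 8.18 ± 0.24 in WT untreated livers (n = 4). Il1b was higher by 1.09 (adjusted p = 0.0158), with means of 9.66 in S534A LPS livers and 8.58 in WT LPS livers. Il1a stayed called on leaving out any 1 array, while Il1b had an adjusted p of 0.0572, 0.0524 and 0.0506 in limma without S534A LPS replicate 2, 3 or 4 and 0.0809 without WT LPS replicate 3. Without the 3 arrays that held exocrine pancreas transcripts, described further on, Il1a differed by 1.15 (limma adjusted p = 0.153). Il1b differed by 1.12 in that fit (limma adjusted p = 0.435). That fit lacks S534A LPS replicate 3 and WT LPS replicates 2 and 3, so fewer arrays were compared. Il6 differed by 0.54 (adjusted p = 0.291) and Tnf by 0.35 (adjusted p = 0.179), neither called. In the fit of all 12 arrays, S534A LPS minus WT LPS was -0.03 for Saa1, -0.05 for Saa3 and -0.12 for Saa4. A link between these values and those of the cytokine genes was not tested.

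Over WT untreated livers, 5 of the 9 cytokine genes were higher and 1 lower in S534A LPS livers, and 2 were higher and 1 lower in WT LPS livers. Tnf rose by 2.62 in S534A LPS livers and by 2.27 in WT LPS livers, and Il1b by 2.69 and 1.61 in the same order. Il6 was higher by 0.85 in S534A LPS livers (limma adjusted p = 0.000917) and differed by 0.31 in WT LPS livers (adjusted p = 0.167). Il6 stayed dim, at 5.46 ± 0.39 in S534A LPS livers, 4.92 ± 0.16 in WT LPS livers and 4.61 ± 0.03 in WT untreated livers (SD, n = 4 each). Of 12 receptors and signal transducers, 8 were higher and 1 lower in each LPS group. Over all genes, 11.0% were called higher and 16.0% lower in S534A LPS livers, and 9.34% and 15.6% in WT LPS livers. The 1 lower gene of each list is near or below these shares. The adaptor Myd88 rose by 2.24 in S534A LPS livers and 1.98 in WT LPS livers, the LPS co-receptor Cd14 by 3.41 and 2.78, and the transcription factor Stat3 by 1.46 and 1.38, in the same order. None of the 12 passed between the genotypes.

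Of 13 transcription factors known to act on serum amyloid A genes, 4 were higher and 3 lower in S534A LPS livers than in WT untreated livers, and 5 were higher and 1 lower in WT LPS livers. Rela, which carries the altered codon in S534A mice, measured 11.20 ± 0.06 in S534A LPS livers and 11.11 ± 0.08 in WT LPS livers, against 9.96 ± 0.14 in WT untreated livers (SD, n = 4 each). The array does not read the codon change, so this level does not check the genotype. Cebpd, a C/EBP factor of the acute phase, rose by 0.80 in S534A LPS livers and 0.76 in WT LPS livers. Maz, a zinc finger factor known to bind serum amyloid A promoters, fell by 0.53 in S534A LPS livers and by 0.41 in WT LPS livers. Over all genes, 11.0% were called higher and 16.0% lower in S534A LPS livers, and 9.34% and 15.6% in WT LPS livers. The counts of lower factors are near or below these shares. None of the 13 passed between the genotypes.

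The liver's other acute phase genes rose broadly. For scale, 11.0% of all genes were called higher in S534A LPS livers and 9.34% in WT LPS livers, each over WT untreated livers. Of 28 measured, 23 were higher and 1 lower in S534A LPS livers than in WT untreated livers (median log2 difference 0.82, against 0.03 over all genes), and 24 were higher and 1 lower in WT LPS livers (median 0.80, against 0.02). The metallothionein Mt1 rose by 3.31 in S534A LPS livers and 3.32 in WT LPS livers, and the interleukin-1 receptor antagonist Il1rn by 3.16 and 3.24 in the same order. Lcn2 measured 13.42 in S534A LPS livers and 13.48 in WT LPS livers, against 9.37 ± 0.88 in WT untreated livers (means, n = 4 each). Saa1 and Saa3 had larger log2 differences than each of the 28, and Saa4 lay below the median of the list. S100a9, a neutrophil protein, was the 1 gene of the 28 called between the genotypes, higher by 0.52 in S534A LPS livers (limma adjusted p = 0.0385). That call was lost without any one of the S534A LPS arrays, WT LPS replicate 2, 3 or 4 or untreated replicate 2, with adjusted p from 0.0526 to 0.173, and it was 0.452 without the pancreas arrays. The highest untreated array for these 28 genes was replicate 3 for 14, replicate 4 for 7, replicate 1 for 5 and replicate 2 for 2. How often each array was highest over all genes was not counted, so these counts lack a background share.

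**Figure D4:**
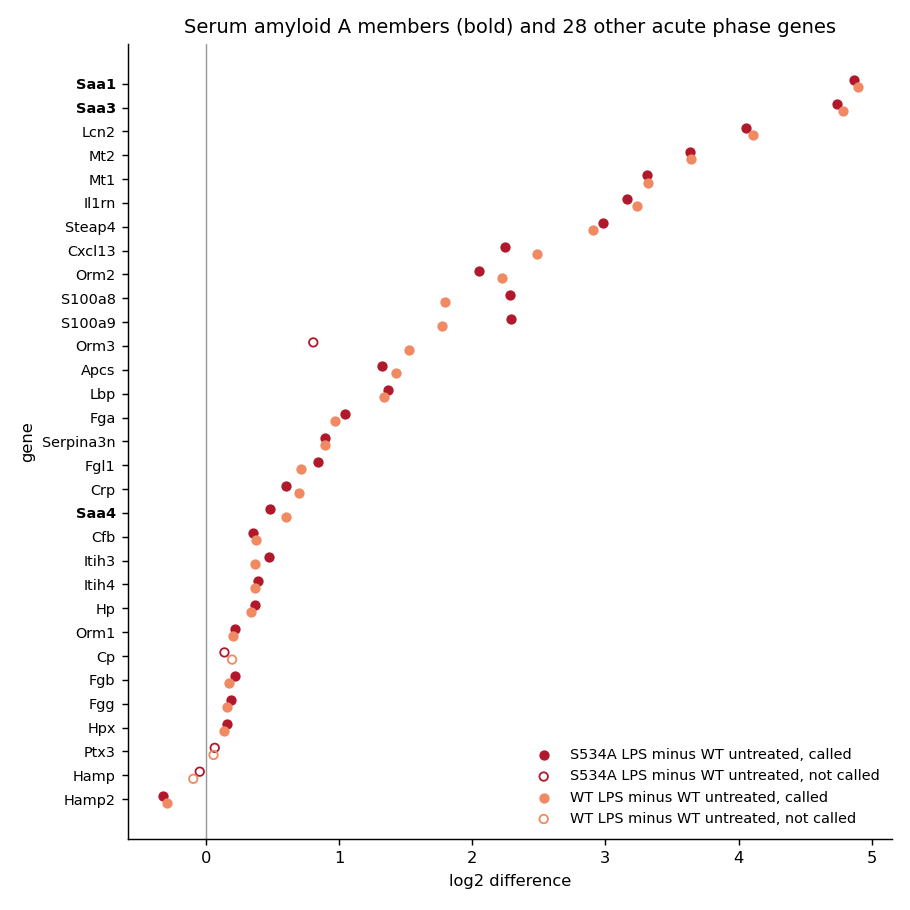
Log2 difference from WT untreated livers (x axis) of the 3 serum amyloid A members in bold and 28 other acute phase genes (y axis), for S534A LPS (dark) and WT LPS (light) livers, filled where limma's adjusted p was under 0.05. Saa1 and Saa3 stand at the top, and Saa4 lies among the modest risers at 0.48 and 0.60.

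Of 12 measured genes that receive or clear the protein, 2 were higher and 1 lower in each LPS group, a share near that of all genes (11.0% higher and 16.0% lower in S534A LPS livers, 9.34% and 15.6% in WT LPS livers). The pattern receptor Tlr2 rose by 4.55 in S534A LPS livers and 4.40 in WT LPS livers, and the HDL receptor Scarb1 by 0.27 and 0.35, while the heparan sulphate proteoglycan gene Hspg2 fell by 0.23 and 0.30, each over WT untreated livers and in that order. Of 16 HDL genes, 3 were higher and 3 lower in S534A LPS livers and 2 higher and 4 lower in WT LPS livers. The cholesterol exporter Abca1 rose by 1.02 in S534A LPS livers and 0.99 in WT LPS livers, and the apolipoprotein gene Apoc1 fell by 0.27 and 0.26. Of 12 negative acute phase genes, 4 were lower in S534A LPS livers and 5 in WT LPS livers. Igfals, a carrier of insulin-like growth factors, fell most, by 0.78 and 0.68 on the log2 scale. The median log2 difference of the 12 was only -0.06 in S534A LPS livers and -0.12 in WT LPS livers. No gene of these 3 lists passed between the genotypes.

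Some markers of other cells also differed. Of 13 neutrophil markers, 10 were higher in each LPS group than in WT untreated livers, and their mean level ran from 6.87 to 7.14 in S534A LPS livers and from 6.55 to 6.78 in WT LPS livers, against 5.56 to 5.67 in WT untreated livers. Between the genotypes, 2 of the 13 (Retnlg and S100a9) were higher in S534A LPS livers, of which Retnlg had a limma adjusted p of 0.0741 without S534A LPS replicate 4, 0.0746 without WT LPS replicate 3 and 0.296 without the pancreas arrays. Of 12 Kupffer cell and macrophage markers, 1 was higher and 6 lower in S534A LPS livers, and 1 was higher and 5 lower in WT LPS livers. Their mean level ran from 8.69 to 8.87 in S534A LPS livers and from 8.42 to 8.99 in WT LPS livers, against 8.85 to 9.31 in WT untreated livers. In bulk liver, a change in the number of cells of a type and a change of RNA per cell cannot be told apart, and the part of these cells in the Saa3 result was not tested. The 11 hepatocyte markers had mean levels of 13.36 to 13.45 on all 12 arrays, a mean over genes that moved both ways: 3 (Fgb, Pck1 and Hpx) were higher and 2 (Ttr and Apoh) lower in each LPS group than in WT untreated livers. Of 6 adipocyte markers 1 was lower in each LPS group, and of 5 cholangiocyte markers 1 was higher in S534A LPS livers. These are single genes and are not read as a change of those cells. Over all genes, 11.0% were called higher and 16.0% lower in S534A LPS livers than in WT untreated livers. In WT LPS livers the shares were 9.34% and 15.6%, and between the genotypes 0.166% were called higher in S534A LPS livers.

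Exocrine pancreas transcripts stood out on 3 arrays, with a mean of 12 markers of 9.28 in S534A LPS replicate 3, 8.28 in WT LPS replicate 2 and 6.66 in WT LPS replicate 3, against 5.75 to 6.22 on the other 9. Without those 3 arrays the members kept their calls and directions, with Saa4 higher by 0.44 in S534A LPS livers (limma adjusted p = 0.0104) and by 0.62 in WT LPS livers (adjusted p = 0.00529). The labels do not say that the mice of a group were handled apart, and untreated samples follow another naming scheme than LPS samples, so any batch that goes with the untreated group cannot be told apart from LPS.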

How the data were processed

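The authors deposited log2 values made with RMA, per the submitters' processing notes. RMA corrects background, quantile normalises and summarises probes per probe set. Its version and the genome build were not stated. The table held 35556 probe sets, of which 21789 carried 1 symbol. By Entrez gene, 21698 of these were found in the RefSeq table of GRCm38.p6. The probe set with the highest mean was used per gene, leaving 19938 genes, with no filter on dim genes and no further normalisation. Each array is 1 liver. The number of arrays limits the precision, and a p-value reflects the spread among these livers.

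Differences were estimated from all 12 arrays in limma 3.58.1 (R 4.3.3), with Benjamini-Hochberg adjustment over all genes and a threshold of 0.05, and the script was tested on simulated data. Unequal change was tested by exact permutation (SciPy 1.17.1). Promoter windows were aligned with Biopython 1.88. Members and gene lists were chosen with earlier results of these data known. Named were the members, Rela, the 5 most alike genes by each measure, 3 neighbours on each side, Il1a, Il1b, Il6 and Tnf, and 2 to 4 genes of smallest p per list described. Dbp, Arntl and other clock and hepatocyte genes were added after their values were seen. Alternatives left out each array, the 3 arrays with pancreas transcripts or untreated pairs, and changed the samples fitted, variance model, weights, normalisation, filter, probe sets, threshold and replicate block.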

Additional observations from a re-analysis of the deposited data

Results flagged for a closer look

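A lone array was looked for in each group of 4, for 15 genes and 45 groups, by the gap between the outermost array and its neighbour. It was found in 3 of the 45 groups. Chance alone flags about 1 in 20 groups, so this number is near that rate. Saa4 measured 12.87 in S534A LPS replicate 3, against 12.71 in the next array of that group, and the gap was 0.892 of the group's range; this array also held exocrine pancreas transcripts, whose part was not tested. Dbp measured 8.80 in WT LPS replicate 1, below 9.39 in the next array. Arntl measured 8.83 in that same replicate, above 7.52 in the next array.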

How the results depend on the processing

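For the 3 members in 3 comparisons, and for the 3 tests of unequal change, each alternative that was run kept the side of the threshold, and each called value kept its direction. Uncalled values changed sign in 3 cases: S534A LPS minus WT LPS was 0.001 for Saa1 without WT LPS replicate 4 and 0.003 for Saa3 without S534A LPS replicate 4, and the change of Saa1 minus that of Saa3 was -0.46 without untreated replicate 3. The replicate numbers did not pair the samples: same-numbered arrays had correlations of deviations from -0.27 to 0.21. With a replicate block, Saa4 had an adjusted p of 0.00306 in S534A LPS livers and 0.00100 in WT LPS livers over WT untreated livers. The count of other acute phase genes called higher in S534A LPS than WT LPS livers, 1 in the fit of all arrays, was 0 with the replicate block, without the 3 pancreas arrays, with trend and robust variance, after repeated quantile normalisation and at an adjusted p under 0.01, and 2 with array weights. Leaving out 1 array gave 0 to 1, with 0 without any S534A LPS array, without WT LPS replicate 2, 3 or 4, or without untreated replicate 2. Over all genes, the 33 higher and 1 lower between the genotypes became 9 to 117 higher and 0 to 6 lower on leaving out 1 array (117 without WT LPS replicate 1, 9 without WT LPS replicate 3), 344 and 132 with array weights, 1 and 0 without the pancreas arrays, 17 and 0 with the replicate block, 65 and 7 against untreated replicates 1 and 3, and 50 and 2 against replicates 2 and 4. Genes lower in WT LPS than WT untreated livers numbered 1745 without the pancreas arrays, which include WT LPS replicates 2 and 3, against 3120. The cause was not tested. The remaining counts of lower genes between the genotypes, 1 in the fit of all arrays, were 8 after repeated quantile normalisation and 2 with trend and robust variance, median centring or the dim filter.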
